A study of Homo sapiens with 12 samples.

Results

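FOXA1, HOXB13 and GATA2 encode pioneer factors, and NCOA1, NCOA2, NCOA3 and NCOR1 encode coregulators that bind nuclear receptors such as the androgen receptor. These 7 genes were described in androgen-treated and SRF-silenced prostate cancer cells through every probe set whose platform gene symbol is 1 of them. A probe set is a group of short probes that together measure 1 transcript region. The table of 54675 probe sets held 15 for 5 of the 7 genes, with 2 each for FOXA1 and HOXB13, 3 for GATA2 and 4 each for NCOA1 and NCOA2. NCOA3 and NCOR1 were not analysed here. Of the 15, 13 passed the filter on low values, a log2 signal above 4 on at least 3 of the 12 arrays, as did 21526 probe sets of the whole table.

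Messenger RNA had been measured in LNCaP cells, an androgen-sensitive line from a human prostate adenocarcinoma, on 12 Affymetrix arrays. The line was kept without androgen for 48 h in every group before transfection. The 4 groups of 3 arrays were siRNA against SRF with R1881, siRNA against SRF with ethanol, control siRNA with R1881, and control siRNA with ethanol. R1881, a synthetic androgen, was used at 5 nM; hormone or ethanol vehicle was added 42 h after transfection and left on for 48 h. SRF is serum response factor, a DNA-binding factor some of whose cofactors sense actin, and siRNA lowers its transcript without deleting the gene. The labels call the 3 arrays of a group biological replicates without naming separate cultures. The tests therefore rest on array-to-array spread, which may be technical, and on 1 cell line. The comparisons ask what R1881 changed with each siRNA, what SRF siRNA changed in each medium, and whether the R1881 effect itself depended on the siRNA.

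Pioneer factors bind their sites in compact chromatin and make nearby sites reachable for receptors. FOXA1 is a forkhead factor, HOXB13 a posterior homeobox factor and GATA2 a zinc-finger factor, and all 3 are known to share enhancers with the androgen receptor in prostate cells. NCOA1, NCOA2 and NCOA3 form the steroid receptor coactivator family, which binds hormone-loaded receptors and brings in histone acetyltransferases. NCOR1 is the scaffold of a corepressor complex that carries a histone deacetylase.

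The windows before the transcription starts of the pioneer-factor genes are shown because GATA2 had the largest and FOXA1 the smallest R1881 change of these genes with control siRNA. They are the 250 bases before the RefSeq start on build GRCh38.p14, 5′ to 3′ on the gene's own strand, which is the minus strand for both genes. FOXA1 has 1 window, at chr14:37595250-37595499, and GATA2 has windows for 2 starts, at chr3:128493202-128493451 and chr3:128488531-128488780. Capitals mark the forkhead core TGTTTG, found here as its reverse complement CAAACA.
FOXA1: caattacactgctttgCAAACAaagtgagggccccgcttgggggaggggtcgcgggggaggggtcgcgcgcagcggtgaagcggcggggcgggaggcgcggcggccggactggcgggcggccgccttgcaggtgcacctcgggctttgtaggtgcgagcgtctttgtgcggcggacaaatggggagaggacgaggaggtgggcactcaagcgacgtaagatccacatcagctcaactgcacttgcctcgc
GATA2, start 1: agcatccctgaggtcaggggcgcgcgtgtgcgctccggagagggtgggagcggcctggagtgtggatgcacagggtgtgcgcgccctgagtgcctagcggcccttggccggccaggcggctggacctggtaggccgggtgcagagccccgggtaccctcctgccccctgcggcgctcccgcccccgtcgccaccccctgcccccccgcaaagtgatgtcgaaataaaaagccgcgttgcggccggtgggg
GATA2, start 2: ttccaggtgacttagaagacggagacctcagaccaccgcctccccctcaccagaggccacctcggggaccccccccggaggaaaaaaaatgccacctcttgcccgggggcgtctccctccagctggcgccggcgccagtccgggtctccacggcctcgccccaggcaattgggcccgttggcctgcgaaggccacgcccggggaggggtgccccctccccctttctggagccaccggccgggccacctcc
Both strands were searched for this core, which 12.8% of all 35116 such RefSeq windows held. They were also searched for AGAACA, the core letters of a steroid receptor element, which 12.4% of windows held. The letters AGATAA, a site that GATA factors bind, stood in 9.17% of windows. The CArG box that SRF binds stood in 1.16%. The FOXA1 match shown in capitals was the only match in these 3 windows. Windows were found for 5 of the 7 members, 9 in all. The 3 windows of NCOA1 held 1 forkhead core and 1 GATA site, both before the same start. Those of NCOA3 and NCOR1 held no match. HOXB13 and NCOA2 have no window in the table used. A match describes letters and not a bound site.

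SRF, read from probe set 202401_s_at, averaged 4.87 ± 0.13 in the R1881 arrays with SRF siRNA and 6.30 ± 0.18 in those with control siRNA, and 4.74 ± 0.28 in the vehicle arrays with SRF siRNA and 6.07 ± 0.14 in those with control siRNA (log2 signal, SD, n = 3 each). SRF siRNA left 36.9% of the signal in R1881 and 39.5% in vehicle (limma adjusted p = 6.91e-06 and 1.54e-05). Another SRF probe set, 202400_s_at, had group means of 2.60 to 2.73 and did not pass the filter. Over all probe sets, the correlation was 0.9964 to 0.9981 within groups and 0.966 to 0.9882 between groups, and no array pair held identical values. All 8 markers of luminal prostate epithelium with a probe set lay above 4 in every group. Of 9 markers of other cell types with a probe set, 6 stayed at or under 4 on every array (KRT5, KRT14, DCN, PTPRC, PECAM1 and CDH5). The summed group level of these 9 was 34.8 with SRF siRNA and R1881, 37.6 with SRF siRNA and vehicle, 31.8 with control siRNA and R1881, and 35.4 with control siRNA and vehicle. VIM, a mesenchymal marker among the other 3, was higher with SRF siRNA by 1.93 ± 0.09 in R1881 and 0.98 ± 0.09 in vehicle (SE, limma adjusted p = 2.92e-08 and 6.59e-06). R1881 changed VIM by 0.51 ± 0.09 with SRF siRNA and by -0.45 ± 0.09 with control siRNA (adjusted p = 0.000882 and 0.00162), and the difference of 0.96 ± 0.13 passed (adjusted p = 0.000519). COL3A1, a fibroblast collagen gene, averaged 4.07 ± 0.44 in R1881 and 7.91 ± 0.21 in vehicle with SRF siRNA, and 2.97 ± 0.07 in R1881 and 6.45 ± 0.15 in vehicle with control siRNA (log2, SD, n = 3 each). It was called lower with R1881 under both siRNAs and higher with SRF siRNA in both media. Its control siRNA R1881 arrays lay under the filter value of 4, so no size is given for a change against them. COL1A1 was called in none of the 5 comparisons. The 3′ minus 5′ GAPDH control difference, a measure of RNA integrity, averaged 0.49 ± 0.14 and 0.36 ± 0.04 with SRF siRNA in R1881 and vehicle, and 0.46 ± 0.02 and 0.14 ± 0.09 with control siRNA in R1881 and vehicle (log2, SD, n = 3 each). The control vehicle arrays, from 0.07 to 0.24, lay below every other array. In bulk RNA of this kind, fewer cells of a type and less RNA per cell cannot be told apart.

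R1881 lowered GATA2 and HOXB13 in all of their tested probe sets with either siRNA. It lowered all 3 tested probe sets of NCOA2 and all 4 of NCOA1 with control siRNA, and 2 of NCOA2 and 0 of NCOA1 with SRF siRNA. FOXA1 passed the test in 1 of its probe sets with SRF siRNA and in neither with control siRNA. A probe set was called at an adjusted p under 0.05 from limma, adjusted over all 21526. In cells with SRF siRNA, R1881 lowered 7 of the 13 probe sets of these genes and raised 0, where 26.7% of all tested probe sets were lower and 20.8% higher. Their median log2 change was -0.26, beside -0.06 for all probe sets. In cells with control siRNA, 11 of the 13 were lower and 0 higher with R1881, where 31.8% of all were lower and 24% higher, and the medians were -0.88 and -0.07. COL3A1, lower with R1881 under both siRNAs, and VIM, higher with R1881 under SRF siRNA and lower under control siRNA, were also called in these comparisons, and their part in the results was not tested.

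SRF siRNA in vehicle raised FOXA1 and a HOXB13 probe set and lowered NCOA1 and NCOA2. In R1881 it raised 2 of the 13 probe sets, from HOXB13 and GATA2, and lowered 2 of NCOA2, where 29% of all tested probe sets were higher and 24.2% lower. Their median change there was 0.10, beside 0.04 for all. In vehicle it raised 3 of the 13, 2 of FOXA1 and 1 of HOXB13, and lowered 7, all those of NCOA1 and NCOA2 that were tested. Of all probe sets 26.4% were higher and 22.7% lower in that comparison, and the medians were -0.37 and 0.03. The R1881 effect itself differed between the siRNAs for 4 of the 13, with 3 differences (SRF minus control siRNA) above 0 and 1 below, where 9.79% of all probe sets had a called difference above 0 and 8.84% below. These 4 belong to FOXA1, NCOA1 and NCOA2. VIM and COL3A1 were higher with SRF siRNA in both media, the VIM difference of R1881 effects was above 0 like those of NCOA1 and NCOA2, and their part in these results was not tested. Comparisons of R1881 with vehicle and of SRF with control siRNA use some of the same arrays, so their changes are not independent of each other.

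**Figure D1:**
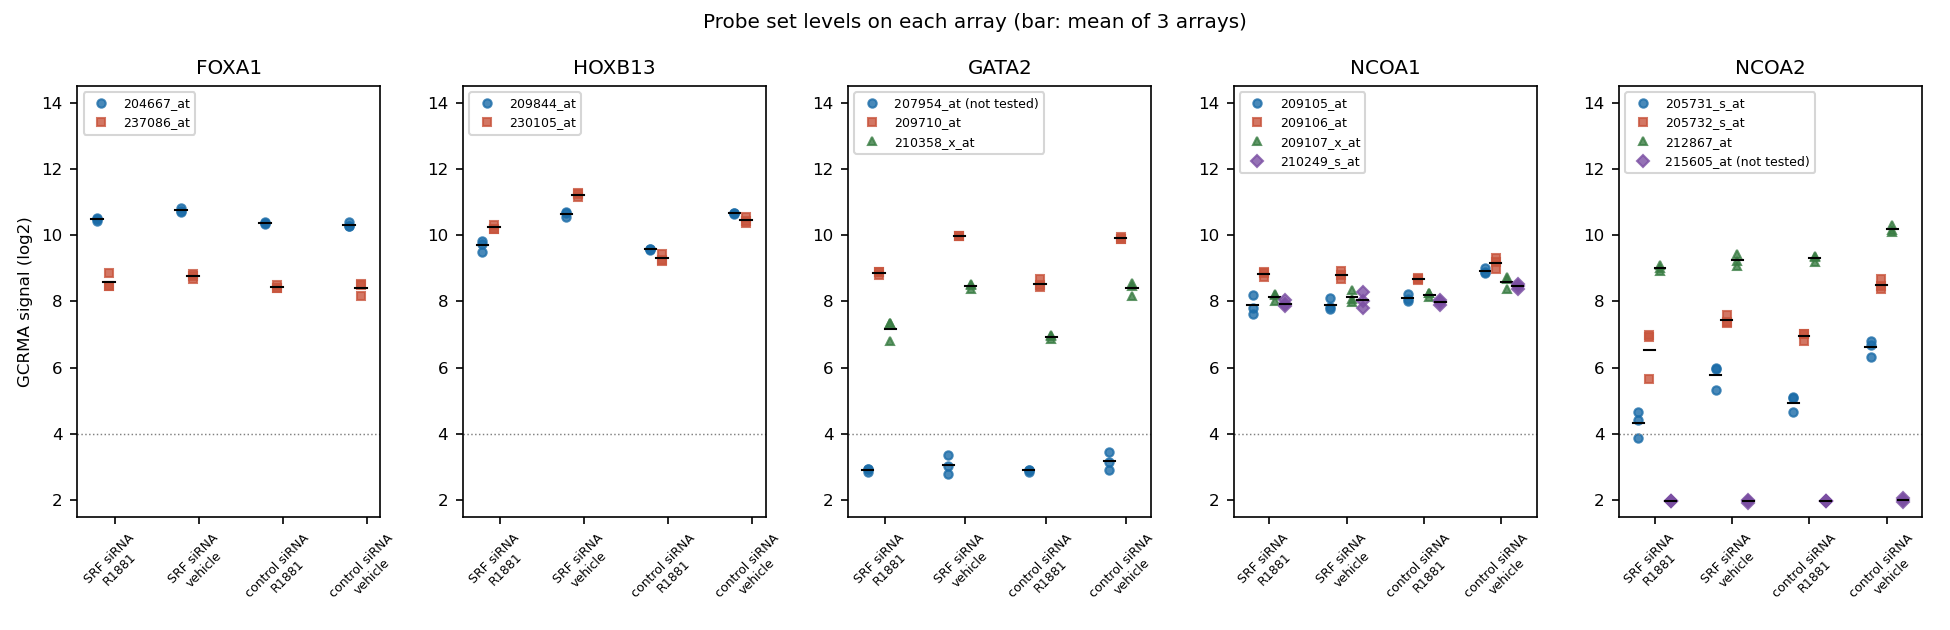
Log2 GCRMA signal of each probe set of FOXA1, HOXB13, GATA2, NCOA1 and NCOA2 on each of the 12 arrays, by group (horizontal axis), with bars at the means of 3 arrays and a dotted line at the filter value of 4. Both tested GATA2 probe sets sit lower in the R1881 groups than in their vehicle groups, and NCOA1 and NCOA2 are highest in the control siRNA vehicle group.

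**Figure D2:**
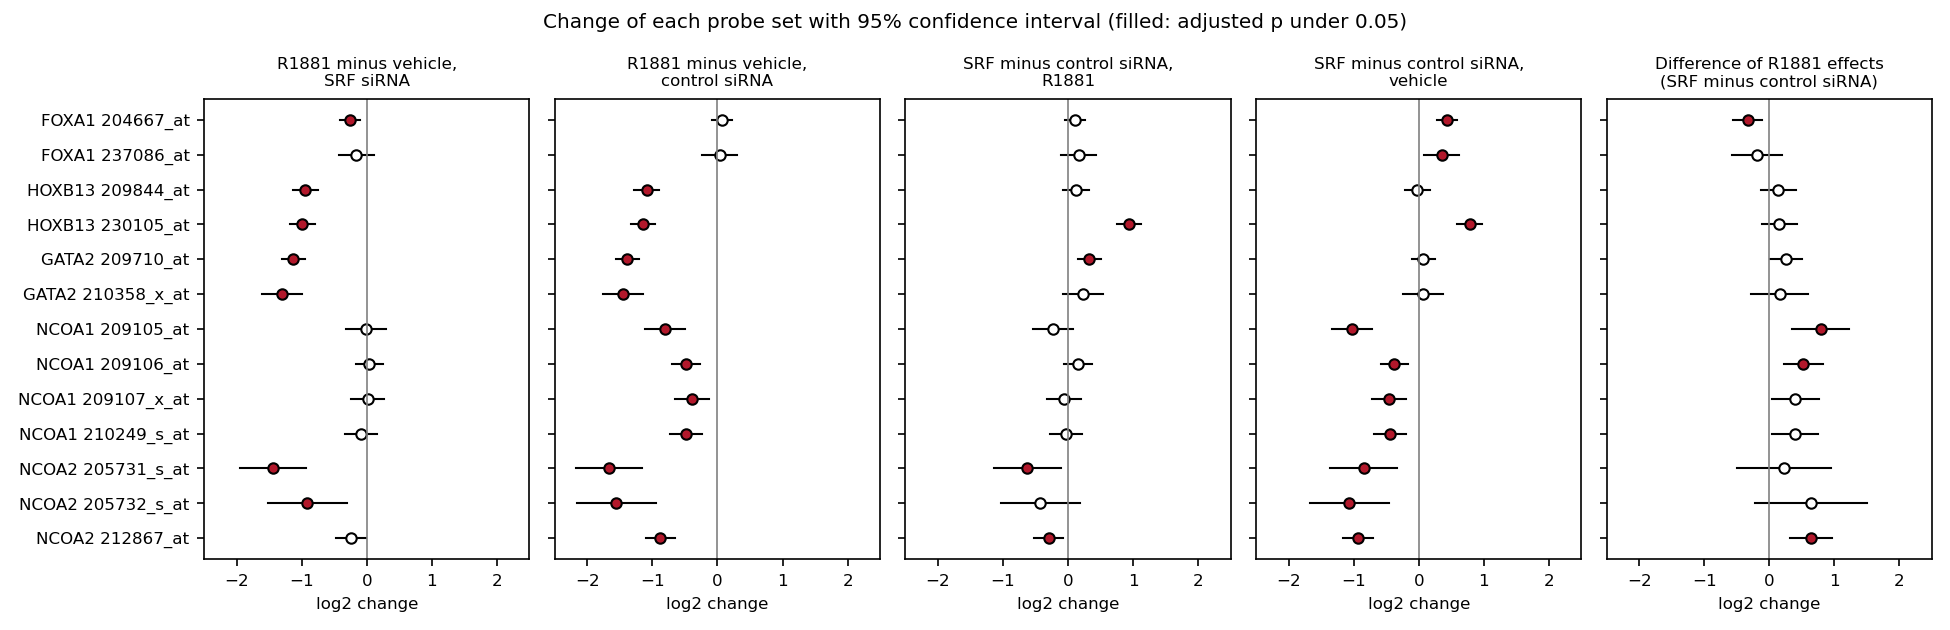
Log2 change of each of the 13 tested probe sets in the 5 comparisons, with 95% confidence intervals from limma; 0 is no change. In the comparison of R1881 with vehicle under control siRNA, the 11 probe sets of GATA2, HOXB13, NCOA1 and NCOA2 lie below 0 and the FOXA1 pair lies at 0.07 and 0.03.

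FOXA1, the forkhead pioneer factor, was raised by SRF siRNA in vehicle, and this was its largest tested change in the 4 comparisons of groups. Probe set 204667_at read 10.42, 10.49 and 10.53 with SRF siRNA and R1881, and 10.81, 10.73 and 10.70 with SRF siRNA and vehicle. With control siRNA it read 10.35, 10.38 and 10.41 in R1881, and 10.27, 10.27 and 10.39 in vehicle. The 3 vehicle arrays with SRF siRNA lay above all 9 others. In R1881, SRF siRNA gave 0.10 ± 0.07 (SE, limma adjusted p = 0.252), and in vehicle it raised the level by 0.44 ± 0.07 (adjusted p = 0.000300), a 1.35-fold difference. With SRF siRNA the R1881 change was -0.26 ± 0.07 (adjusted p = 0.00840). With control siRNA the R1881 change was 0.07 ± 0.07 (adjusted p = 0.414), with a 95% interval from -0.08 to 0.22. The difference between these effects was -0.34 ± 0.10 (adjusted p = 0.0356). That call was lost when any 1 of 9 of the 12 arrays was left out, with values of -0.35 to -0.30 and adjusted p of 0.0589 to 0.0808, and was kept without replicate 3 of the SRF siRNA R1881, SRF siRNA vehicle or control vehicle arrays. It was also lost with the GAPDH covariate, at -0.30 ± 0.12 (adjusted p = 0.120), and with the replicate number as a block, at an adjusted p of 0.0627.

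Probe set 237086_at also carries the FOXA1 symbol, and its 4 groups lay closer together. It read 8.46, 8.46 and 8.87 with SRF siRNA and R1881, 8.82, 8.68 and 8.77 with SRF siRNA and vehicle, 8.40, 8.49 and 8.41 with control siRNA and R1881, and 8.52, 8.18 and 8.51 with control siRNA and vehicle. Of the 5 comparisons, SRF against control siRNA in vehicle passed, at 0.35 ± 0.12 (adjusted p = 0.0332). That call was lost without replicate 1 or replicate 3 of the SRF siRNA vehicle arrays or without replicate 2 of the control vehicle arrays, with values of 0.24 to 0.35 and adjusted p of 0.0768 to 0.136, and without the filter (adjusted p = 0.0871). With the GAPDH covariate it was 0.24 (adjusted p = 0.349), whereas 204667_at kept 0.40 (adjusted p = 0.0134). Replicate 3 of the SRF siRNA R1881 arrays, at 8.87, stood above its group, and without it the R1881 change with SRF siRNA was -0.30 (adjusted p = 0.0471) in place of -0.16 (adjusted p = 0.318).

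HOXB13, the homeobox factor, fell with R1881 under both siRNAs in both of its probe sets. Probe set 230105_at read 10.19, 10.19 and 10.32 with SRF siRNA and R1881, against 11.28, 11.15 and 11.25 with SRF siRNA and vehicle. With control siRNA it read 9.44, 9.21 and 9.24 in R1881, against 10.43, 10.54 and 10.36 in vehicle. The groups did not overlap in any of these pairs. R1881 changed it by -0.99 ± 0.09 with SRF siRNA and by -1.15 ± 0.09 with control siRNA (SE, limma adjusted p = 2.38e-06 and 4.52e-07). The difference of these effects, 0.16 ± 0.12, did not pass (adjusted p = 0.423), with a 95% interval from -0.11 to 0.42. In order of level the groups ran from SRF siRNA with vehicle through control siRNA with vehicle and SRF siRNA with R1881 to control siRNA with R1881; the middle groups were not compared by a test, and their arrays did not overlap.

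The HOXB13 probe sets parted under SRF siRNA. Probe set 209844_at read 9.84, 9.74 and 9.50 with SRF siRNA and R1881, against 9.58, 9.58 and 9.56 with control siRNA and R1881. In vehicle it read 10.55, 10.69 and 10.68 with SRF siRNA, against 10.68, 10.67 and 10.62 with control siRNA. The arrays of the 2 siRNAs overlapped in both media. Its SRF siRNA changes were 0.12 ± 0.09 in R1881 and -0.02 ± 0.09 in vehicle (adjusted p = 0.277 and 0.881), beside 0.94 ± 0.09 and 0.78 ± 0.09 for 230105_at (adjusted p = 3.62e-06 and 1.90e-05). Without replicate 3 of the SRF siRNA R1881 arrays, 209844_at gave 0.22 in R1881 (adjusted p = 0.0394). The R1881 change of 209844_at was -0.95 ± 0.09 with SRF siRNA and -1.09 ± 0.09 with control siRNA (adjusted p = 4.31e-06 and 8.80e-07).

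The gap between the HOXB13 probe sets on the same array was compared after its values were seen and is given without a test. The level of 230105_at minus that of 209844_at was 0.36, 0.45 and 0.82 with SRF siRNA and R1881, and 0.73, 0.46 and 0.57 with SRF siRNA and vehicle. With control siRNA it was -0.15, -0.36 and -0.32 in R1881, and -0.25, -0.13 and -0.27 in vehicle. All 6 arrays with SRF siRNA lay above 0 and all 6 with control siRNA below it. Group means differed by 0.82 in R1881 and 0.80 in vehicle. The part of the gene that each probe set reads is not given in the sources used here.

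**Figure D3:**
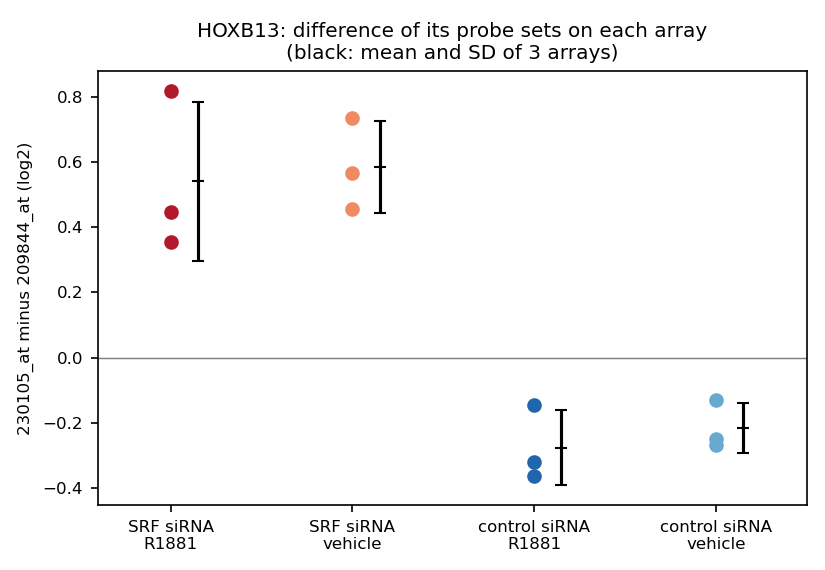
Difference in log2 signal between the HOXB13 probe sets 230105_at and 209844_at on each array, by group, with the mean and SD of 3 arrays in black. The 6 arrays with SRF siRNA lie between 0.36 and 0.82, and the 6 with control siRNA between -0.36 and -0.13.

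GATA2, the zinc-finger factor, had the largest R1881 change among the pioneer-factor genes in both siRNA backgrounds. Probe set 209710_at read 8.89, 8.79 and 8.89 with SRF siRNA and R1881, against 9.97, 9.99 and 9.99 with SRF siRNA and vehicle. Under control siRNA the values were 8.42, 8.67 and 8.48 in R1881, against 9.89, 9.96 and 9.88 in vehicle. Every R1881 array lay below every vehicle array. The R1881 change was -1.13 ± 0.08 with SRF siRNA and -1.38 ± 0.08 with control siRNA (SE, limma adjusted p = 3.33e-07 and 4.06e-08), leaving 45.7% and 38.4% of the vehicle signal. The difference of 0.25 ± 0.11 did not pass after adjustment (adjusted p = 0.141). SRF siRNA gave a smaller change, a rise of 0.33 ± 0.08 in R1881 (adjusted p = 0.00409), with 0.07 ± 0.08 in vehicle (adjusted p = 0.469).

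Probe set 210358_x_at of GATA2 followed the same order of treatments. It read 7.34, 6.82 and 7.34 with SRF siRNA and R1881, 8.39, 8.50 and 8.51 with SRF siRNA and vehicle, 6.96, 6.99 and 6.87 with control siRNA and R1881, and 8.16, 8.48 and 8.54 with control siRNA and vehicle. The R1881 changes were -1.30 ± 0.14 with SRF siRNA and -1.46 ± 0.14 with control siRNA (adjusted p = 1.47e-05 and 3.84e-06). The rise with SRF siRNA in R1881 was not called here, at 0.23 ± 0.14 (adjusted p = 0.199), unless replicate 2 of the SRF siRNA R1881 arrays, the one at 6.82, was left out, which gave 0.40 (adjusted p = 0.0136). A further GATA2 probe set, 207954_at, read 2.80 to 3.47 on the 12 arrays and did not pass the filter. With the GAPDH covariate, the R1881 changes of the GATA2 and HOXB13 probe sets with control siRNA ran from -1.64 to -0.82, and all 4 were still called.

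NCOA1, a steroid receptor coactivator, was highest in cells with control siRNA and vehicle, and was lower with R1881 under control siRNA and with SRF siRNA in vehicle. Probe set 209106_at read 8.75, 8.87 and 8.89 with SRF siRNA and R1881, and 8.91, 8.80 and 8.67 with SRF siRNA and vehicle. The control siRNA arrays read 8.69, 8.66 and 8.71 in R1881, and 8.98, 9.20 and 9.33 in vehicle. The 3 control vehicle arrays lay above the other 9. The R1881 change was 0.04 ± 0.10 with SRF siRNA and -0.48 ± 0.10 with control siRNA (SE, limma adjusted p = 0.764 and 0.00121). SRF siRNA changed it by 0.15 ± 0.10 in R1881 (adjusted p = 0.216), and by -0.37 ± 0.10 in vehicle (adjusted p = 0.00776), a comparison that shares the control vehicle arrays. The R1881 effects differed by 0.52 ± 0.14 (adjusted p = 0.0215), a call lost at 0.46 without replicate 3 of the SRF siRNA vehicle arrays (adjusted p = 0.0508).

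Probe set 209105_at of NCOA1 had the widest separation of the 4 that read this gene. It read 8.20, 7.81 and 7.62 with SRF siRNA and R1881, 7.83, 8.10 and 7.77 with SRF siRNA and vehicle, 8.09, 8.23 and 8.01 with control siRNA and R1881, and 8.89, 8.85 and 9.02 with control siRNA and vehicle. R1881 changed it by -0.02 ± 0.14 with SRF siRNA and -0.81 ± 0.14 with control siRNA (adjusted p = 0.927 and 0.000425), and SRF siRNA by -1.02 ± 0.14 in vehicle (adjusted p = 9.78e-05). The difference of the R1881 effects was 0.79 ± 0.20 (adjusted p = 0.0173), a call lost without the filter on low values (adjusted p = 0.0550). In R1881, SRF siRNA gave -0.23 ± 0.14 (adjusted p = 0.190), or -0.39 without replicate 1 of the SRF siRNA R1881 arrays (adjusted p = 0.0178).

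The other NCOA1 probe sets were called in the same pair of group comparisons, with smaller changes than 209105_at. With control siRNA, R1881 changed 209107_x_at by -0.39 ± 0.12 and 210249_s_at by -0.49 ± 0.11 (adjusted p = 0.0146 and 0.00299). SRF siRNA in vehicle changed them by -0.46 ± 0.12 and -0.43 ± 0.11 (adjusted p = 0.00710 and 0.00730). The R1881 call of 209107_x_at was lost without replicate 1 of the control R1881 arrays or replicate 2 or 3 of the control vehicle arrays, with adjusted p of 0.0524 to 0.0576. Their differences of R1881 effects, 0.40 ± 0.17 and 0.40 ± 0.16, did not pass (adjusted p = 0.124 and 0.110), but both passed without replicate 1 of the SRF siRNA vehicle arrays, at 0.51 and 0.52 (adjusted p = 0.0481 and 0.0243), and 209107_x_at also without replicate 1 of the control vehicle arrays, at 0.51 (adjusted p = 0.0497). The 4 probe sets correlated with each other at r of 0.705 to 0.900 over the 12 arrays.

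NCOA2, a member of the same coactivator family, fell with R1881 under control siRNA and with SRF siRNA in vehicle. Probe set 212867_at read 8.92, 9.0 and 9.09 with SRF siRNA and R1881, and 9.05, 9.23 and 9.44 with SRF siRNA and vehicle. With control siRNA it read 9.20, 9.38 and 9.34 in R1881, and 10.30, 10.09 and 10.15 in vehicle. The 3 control vehicle arrays lay above the other 9. The R1881 change was -0.24 ± 0.10 with SRF siRNA and -0.88 ± 0.10 with control siRNA (SE, limma adjusted p = 0.0823 and 2.26e-05). The effects differed by 0.64 ± 0.15 (adjusted p = 0.0116). Without replicate 1 of the SRF siRNA vehicle arrays the R1881 change with SRF siRNA was called, at -0.33 (adjusted p = 0.0238), as it was with a trended, robust variance model (adjusted p = 0.0434). SRF siRNA changed the probe set by -0.30 ± 0.10 in R1881 and by -0.94 ± 0.10 in vehicle (adjusted p = 0.0302 and 2.04e-05). The call in R1881 was lost without replicate 1 or 2 of the SRF siRNA R1881 arrays or replicate 2 or 3 of the control R1881 arrays, with values of -0.30 to -0.26 and adjusted p of 0.0694 to 0.0972, and without the filter (adjusted p = 0.0641).

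Both other NCOA2 probe sets that passed the filter had larger R1881 changes. Probe set 205731_s_at read 4.44, 4.66 and 3.88 with SRF siRNA and R1881, 5.96, 6.01 and 5.34 with SRF siRNA and vehicle, 5.09, 5.11 and 4.65 with control siRNA and R1881, and 6.82, 6.33 and 6.70 with control siRNA and vehicle. R1881 changed it by -1.44 ± 0.23 with SRF siRNA and -1.66 ± 0.23 with control siRNA (adjusted p = 0.000340 and 8.05e-05), and the difference of 0.22 ± 0.33 did not pass (adjusted p = 0.696). The SRF siRNA change in R1881 was -0.63 ± 0.23 (adjusted p = 0.0403). Without replicate 3 of the SRF siRNA R1881 arrays that value was -0.40 (adjusted p = 0.163), and the call was also lost without replicate 1 of those arrays, replicate 1 or 2 of the control R1881 arrays, or replicate 3 of the control vehicle arrays. It was lost too without the filter and in a fit of those groups only (adjusted p = 0.147 and 0.0555). In vehicle, SRF siRNA changed it by -0.85 ± 0.23 (adjusted p = 0.0101).

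Probe set 205732_s_at of NCOA2 had 1 array far from its group. It read 6.93, 7.0 and 5.65 with SRF siRNA and R1881, against 7.36, 7.58 and 7.38 with SRF siRNA and vehicle. The control siRNA arrays read 7.02, 7.03 and 6.80 in R1881, against 8.67, 8.39 and 8.46 in vehicle. R1881 changed it by -0.92 ± 0.28 with SRF siRNA and -1.56 ± 0.28 with control siRNA (adjusted p = 0.0170 and 0.000488). Without replicate 3 of the SRF siRNA R1881 arrays, at 5.65, the first of these was -0.48 (adjusted p = 0.00583). The difference of effects then passed, at 1.08 (adjusted p = 0.000951), in place of 0.64 ± 0.39 (adjusted p = 0.294). Without replicate 2 of the SRF siRNA vehicle arrays the R1881 call with SRF siRNA was lost, at -0.84 (adjusted p = 0.0558). That call was also lost with the GAPDH covariate at -0.41, without the filter, and in a fit of those groups only (adjusted p = 0.1002, 0.0749 and 0.0645). SRF siRNA changed it by -0.42 ± 0.28 in R1881 (adjusted p = 0.221), or 0.01 without the array at 5.65 (adjusted p = 0.944), and by -1.06 ± 0.28 in vehicle (adjusted p = 0.00731). A further NCOA2 probe set, 215605_at, read 1.93 to 2.06 on all arrays and did not pass the filter.

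RNA integrity moved with the coactivator results, since the control vehicle arrays, in which NCOA1 and NCOA2 were highest, had the lowest GAPDH difference. With that difference as a covariate, the R1881 change under control siRNA was no longer called for 205732_s_at and 205731_s_at of NCOA2, at -0.30 and -0.72 (adjusted p = 0.472 and 0.0931), or for 209105_at and 210249_s_at of NCOA1, at -0.26 and -0.47 (adjusted p = 0.326 and 0.130). The covariate also widened the SE of these changes. Its slope was estimated from differences between arrays of the same group, and these were widest in the SRF siRNA R1881 arrays (SD 0.14). Replicate 3 of that group had the highest GAPDH difference, 0.64, and is the array at 5.65 in 205732_s_at. Whether the same slope holds for the control vehicle arrays was not tested. For 210249_s_at the change itself moved little, from -0.49 ± 0.11 to -0.47 ± 0.22. The R1881 change of 205732_s_at with SRF siRNA was lost too, as given above. Under control siRNA the change stayed called for 212867_at of NCOA2 at -0.94 and for 209106_at and 209107_x_at of NCOA1 at -0.63 and -0.61 (adjusted p = 0.00491, 0.0211 and 0.0498). For SRF siRNA in vehicle, 205731_s_at and 205732_s_at both gave -0.21 (adjusted p = 0.540 and 0.516). In that comparison 210249_s_at gave -0.42 ± 0.17 (adjusted p = 0.0846), against -0.43 ± 0.11 without the covariate. There 209105_at stayed called at -0.65 (adjusted p = 0.00684), and 212867_at gave -0.98 (adjusted p = 0.000929). The difference of R1881 effects stayed called for 212867_at at 0.68 and 209106_at at 0.61 (adjusted p = 0.0306 and 0.0296), and was lost for 209105_at at 0.46 (adjusted p = 0.0987). The representative probe sets of NCOA1 and NCOA2, those with the highest mean, kept all of their calls in these 3 comparisons.

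**Figure D4:**
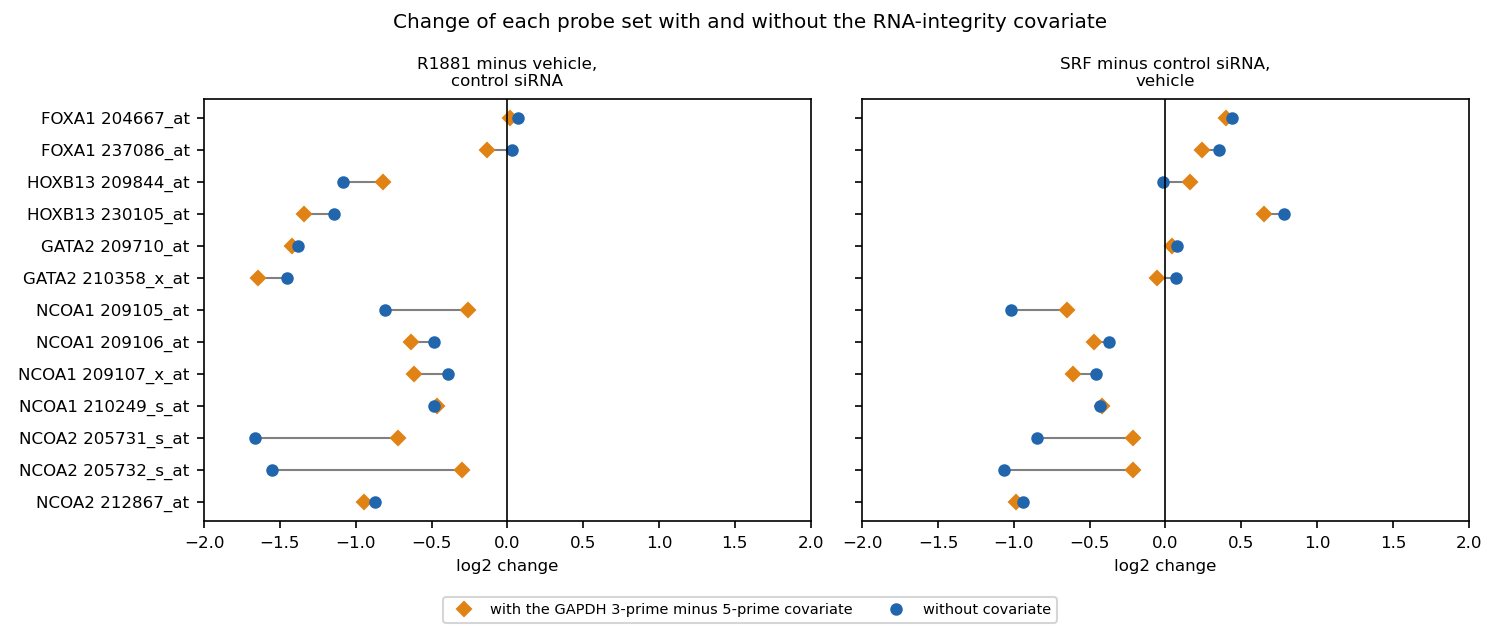
Log2 change of each tested probe set with the GAPDH 3′ minus 5′ covariate (diamonds) and without it (circles), for R1881 against vehicle with control siRNA (left) and SRF against control siRNA in vehicle (right). The covariate moves 205732_s_at of NCOA2 to -0.30 on the left, against -1.56 without it, while 212867_at lies at -0.94 on the left and -0.98 on the right with it. The slope of the covariate was estimated within groups, where the SRF siRNA R1881 arrays spread most.

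Each member's representative probe set was set against the other genes over the 12 arrays, as a description over arrays that share the 4 groups. GATA2 was most like TP53INP1, ATG3 and SESN1 (Pearson r = 0.994, 0.993 and 0.991). HOXB13 was most like CDCA5, TOP2A and WDR75, each at 0.992. NCOA2 was most like TCAIM, RPAP3 and HNRNPAB (0.978, 0.975 and 0.973). The likeness was lower for FOXA1, with EXT1, IFT70A and CD24 (0.960, 0.951 and 0.949), and for NCOA1, with CCNH, USP45 and CHASERR (0.929, 0.913 and 0.910). Probe sets of the same gene correlated at 0.979 for GATA2, 0.791 for FOXA1, 0.790 for HOXB13 and 0.793 to 0.948 for NCOA2.

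Lists of related genes were counted by gene, through the probe set with the highest mean, so that 10265 genes were tested. Counted in the same way, 3 of the 5 members were lower and 0 higher with R1881 under SRF siRNA, where 26.4% of all genes were lower and 24.4% higher. With control siRNA, 4 of the 5 were lower and 0 higher, where 32.9% of all were lower and 26.1% higher. SRF siRNA raised 2 and lowered 1 in R1881, where 32.4% of all genes were higher and 24.5% lower, and raised 2 and lowered 2 in vehicle, where 29.3% were higher and 23.8% lower. The difference of R1881 effects was called above 0 for 2 and below 0 for 1, where 11.4% of all genes lay above and 9.28% below. The shares of all genes given here also stand beside the counts of the lists below.

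Other coactivators fell with R1881 more often than they rose. Of 41 tested, R1881 lowered 20 and raised 7 with SRF siRNA, and lowered 23 and raised 8 with control siRNA, with median changes of -0.23 and -0.40 beside -0.03 and -0.05 for all genes. KMT2A, a histone methyltransferase gene, averaged 6.42 ± 0.06 in R1881 and 7.45 ± 0.12 in vehicle with control siRNA (log2, SD, n = 3 each), a change of -1.03 ± 0.11 (SE, limma adjusted p = 8.52e-06). KDM1A, which encodes a histone demethylase, changed by -0.98 ± 0.11 and JMJD1C by -0.91 ± 0.10. The acetyltransferase gene KAT2B rose by 1.24 ± 0.15 (adjusted p = 2.83e-05). It also had the largest SRF siRNA change of the list, at -2.97 ± 0.15 in R1881 and -2.73 ± 0.15 in vehicle (adjusted p = 4.37e-08 and 9.94e-08). SRF siRNA raised 18 and lowered 10 of the 41 in R1881, and raised 10 and lowered 7 in vehicle (medians 0.17 and 0.05). The R1881 effect differed for 2 of the 41, KMT2A at 0.65 ± 0.15 and CREBBP, a histone acetyltransferase gene, at 0.55 ± 0.14 (adjusted p = 0.0133 and 0.0155). The shares of all genes were 11.4% above 0 and 9.28% below, larger than those of this list.

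Corepressor genes other than NCOR1 more often fell than rose with R1881 and more often rose than fell with SRF siRNA. Of 26 tested, R1881 lowered 16 and raised 5 with SRF siRNA, and lowered 14 and raised 4 with control siRNA (medians -0.38 and -0.49). SRF siRNA raised 17 and lowered 4 in R1881, and raised 13 and lowered 3 in vehicle (medians 0.33 and 0.28, beside 0.06 and 0.04 for all genes). CTBP1, a transcriptional corepressor gene, changed with R1881 by -1.41 ± 0.07 under SRF siRNA (limma adjusted p = 3.32e-08). With control siRNA it averaged 8.69 ± 0.01 in R1881 and 11.02 ± 0.08 in vehicle, a change of -2.32 ± 0.07 (adjusted p = 4.05e-10), and the difference of 0.92 ± 0.11 passed (adjusted p = 0.000154). In all, the R1881 effect differed for 6 corepressor genes, with 4 differences above 0 and 2 below. Among all genes, 11.4% had a called difference above 0 and 9.28% below, so the corepressor share was near that of all genes. The CTBP1 paralog CTBP2 rose with SRF siRNA in vehicle by 1.21 ± 0.08, and DAXX, a histone chaperone gene, by 1.20 ± 0.08 (adjusted p = 4.86e-07 and 2.70e-07). TBL1XR1, a subunit of the NCOR1 complex, changed by -0.92 ± 0.09 (adjusted p = 9.24e-06). The part of VIM and COL3A1 in these counts was not tested either.

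**Figure D5:**
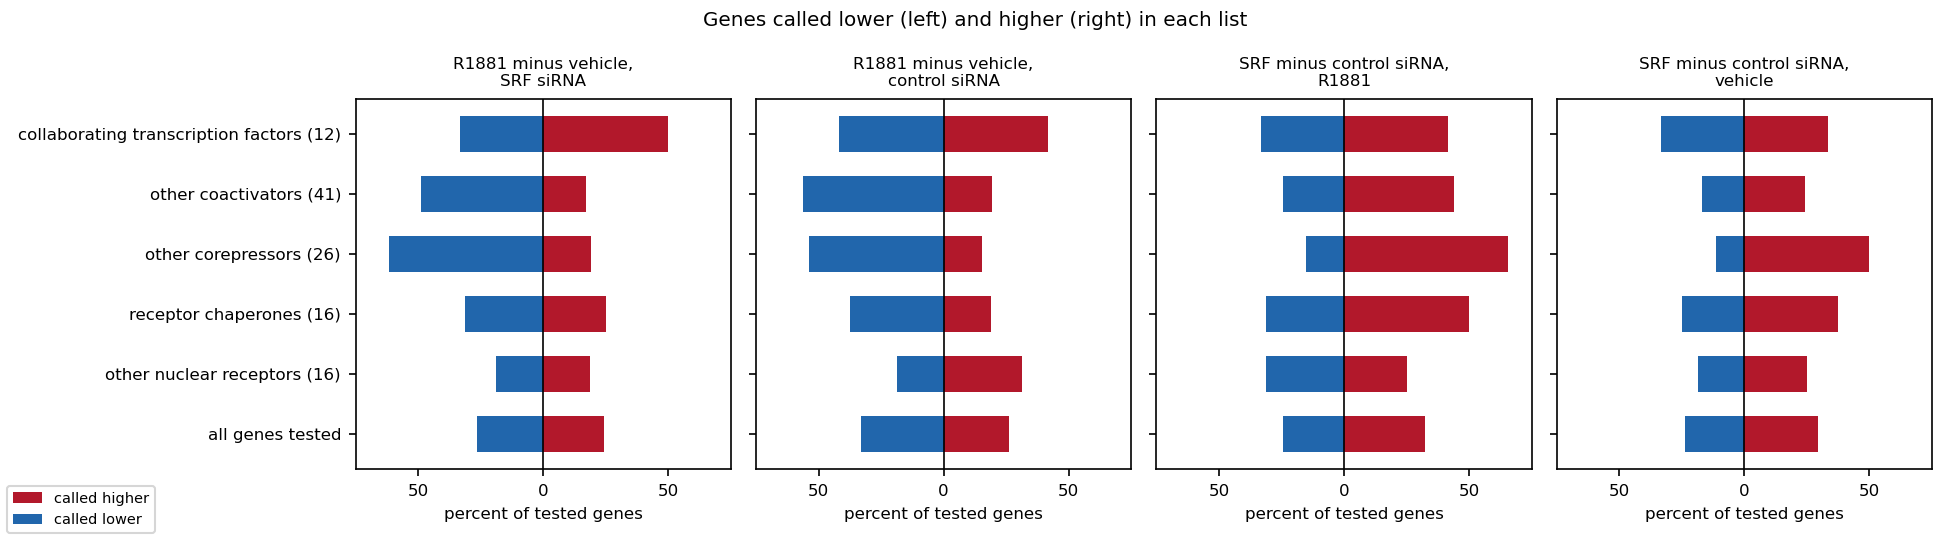
Percent of tested genes called lower (bars to the left) and higher (bars to the right) in each list and among all 10265 genes, in 4 comparisons, with the number tested in parentheses. Corepressors have 16 of 26 genes lower with R1881 under SRF siRNA, and 17 of 26 higher with SRF siRNA in R1881. The bars of other nuclear receptors include THRA, which passed the filter only through the vehicle groups.

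Transcription factors that work beside the androgen receptor moved both ways. Of 12 tested, R1881 raised 6 and lowered 4 with SRF siRNA, and raised 5 and lowered 5 with control siRNA (medians 0.14 and -0.0001). KLF5, a Krüppel-like factor gene, averaged 7.76 ± 0.14 in R1881 and 4.75 ± 0.40 in vehicle with control siRNA, a change of 3.01 ± 0.18 (limma adjusted p = 6.08e-08). The nuclear factor I gene NFIB rose by 1.54 ± 0.10 and the ETS gene ETV1 by 1.23 ± 0.09, while NFIX changed by -1.73 ± 0.12 and the GATA-type repressor gene TRPS1 by -1.78 ± 0.13. SRF siRNA raised 5 and lowered 4 in R1881, and raised 4 and lowered 4 in vehicle, with SOX9 at 1.72 ± 0.15 and 1.56 ± 0.15 (adjusted p = 2.01e-06 and 5.55e-06). The R1881 effect differed for 3, NFIB at -0.86 ± 0.15, KLF5 at -0.86 ± 0.25 and NFIC at 0.58 ± 0.16 (adjusted p = 0.00190, 0.0360 and 0.0288). Of all genes, 11.4% had a called difference above 0 and 9.28% below. Among 18 paralogs of FOXA1, HOXB13 and GATA2, 3 passed the filter. HOXB6 passed it only through the SRF siRNA vehicle arrays, with a group mean of 4.47 there and of 3.64 to 3.89 elsewhere, so no count is given for these paralogs. HOXC13 changed by -1.70 ± 0.11 with SRF siRNA and by -1.58 ± 0.11 with control siRNA (adjusted p = 1.68e-07 and 2.22e-07). GATA6 changed by -0.25 ± 0.09 and -0.49 ± 0.09 in the same comparisons (adjusted p = 0.0322 and 0.000467).

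Chaperones of the receptor and other nuclear receptors had calls in both directions. Of 16 chaperone genes tested, R1881 raised 4 and lowered 5 with SRF siRNA, and raised 3 and lowered 6 with control siRNA (medians -0.03 and -0.09). Among all genes, 24.4% were higher and 26.4% lower with SRF siRNA, and 26.1% higher and 32.9% lower with control siRNA. FKBP5, a well known androgen-induced immunophilin gene, averaged 12.9 ± 0.11 in R1881 and 8.70 ± 0.08 in vehicle with SRF siRNA, a change of 4.17 ± 0.08, and changed by 4.76 ± 0.08 with control siRNA (limma adjusted p = 2.17e-11 and 6.29e-12). The difference of FKBP5 effects passed, at -0.59 ± 0.12 (adjusted p = 0.00468). Its relative FKBP4 changed by -0.22 ± 0.08 with SRF siRNA and -0.77 ± 0.08 with control siRNA (adjusted p = 0.0438 and 8.06e-06). That difference, 0.55 ± 0.11, passed too (adjusted p = 0.00651). In this list 2 differences were called above 0 and 3 below, where 11.4% of all genes lay above and 9.28% below. SRF siRNA raised 8 and lowered 5 of the 16 in R1881, and raised 6 and lowered 4 in vehicle, with the co-chaperone gene BAG3 at -1.05 ± 0.10 and -0.59 ± 0.10. Among 16 other nuclear receptor genes tested, THRA, a thyroid hormone receptor gene, was called lower with R1881 under both siRNAs. It passed the filter only through the vehicle groups. Its means were 3.54 and 4.26 in R1881 and vehicle with SRF siRNA, and 3.72 and 4.35 with control siRNA. No count of R1881 calls is therefore given for this list. NR4A1, an immediate-early orphan receptor gene, rose with R1881 by 0.90 ± 0.22 under SRF siRNA. It was also called higher under control siRNA, where its vehicle mean of 3.83 lay under the filter value. No size is given for that change or for the difference of effects, which was called below 0 (adjusted p = 0.0132). SRF siRNA raised 4 and lowered 5 of the 16 in R1881, and raised 4 and lowered 3 in vehicle. It raised THRB, the thyroid hormone receptor beta gene, by 1.39 ± 0.09 in R1881 and 2.03 ± 0.09 in vehicle, and changed the retinoid X receptor gene RXRA by -1.0 ± 0.07 and -1.17 ± 0.07 (adjusted p of all 4 between 2.80e-08 and 4.97e-07).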

How the data were processed

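The deposited values are log2 signals, 1 per probe set and array, which the authors made with GCRMA, per the submitters' processing notes; its version was not given. GCRMA corrects background from probe sequence and normalizes across arrays, so dim probe sets gather at values of 2 to 3. No further normalization was applied. Gene symbols came from the platform annotation: 41091 probe sets had 1 symbol. The filter kept 21526 probe sets, with controls excluded.

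Each probe set was fitted by group means in limma 3.58.1 (R 4.3.3; statmod 1.5.0). P-values came from eBayes and were adjusted over all 21526 by Benjamini-Hochberg. The script was tested on simulated data. A call is an adjusted p under 0.05. SE is the moderated standard error and SD the spread of 3 arrays. The number of arrays limits the precision. Genes with several probe sets were counted by the one with the highest mean. Same-numbered arrays of different groups correlated at -0.18 to 0.19 in their deviations from group means (median 0.01). Differently numbered arrays correlated at -0.14 to 0.17. No strong pairing by replicate number was seen, and the main fit used none. A weak pairing cannot be told from these values.

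The members and gene lists were chosen with earlier results of these data known. All member probe sets were described; of each list at most the 3 called genes with the largest change per direction and comparison were named, and per member the 3 genes with the highest correlation. GATA3, GATA6, FOXA2 and FOXA3 stand in 2 lists. Promoter windows are from RefSeq. Alternatives changed the filter, a floor, the probe set per gene, the scaling of arrays, the variance model, which groups entered the fit, a replicate block, a GAPDH covariate and the threshold, and left out each array. The fit without replicate 3 of both SRF siRNA groups and the HOXB13 gap were added after seeing the data. Python 3.11.15 and matplotlib 3.10.9 made the figures.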

Additional observations from a re-analysis of the deposited data

Results flagged for a closer look

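The R1881 effect differed between SRF and control siRNA, by the limma test of the difference itself (SRF minus control siRNA), for 4 probe sets. For 204667_at of FOXA1 the difference was -0.34 ± 0.10 on the log2 scale (SE, adjusted p = 0.0356), from an effect of -0.26 with SRF siRNA and 0.07 with control siRNA. For NCOA1 it was 0.79 ± 0.20 in 209105_at (adjusted p = 0.0173) and 0.52 ± 0.14 in 209106_at (adjusted p = 0.0215). For 212867_at of NCOA2 it was 0.64 ± 0.15 (adjusted p = 0.0116). With the GAPDH 3′ minus 5′ covariate the NCOA2 difference and that of 209106_at stayed called, and those of 204667_at and 209105_at did not. The call of 209105_at was also lost without the filter on low values (adjusted p = 0.0550). That of 204667_at was lost when any 1 of 9 of the 12 arrays was left out. At an adjusted p under 0.01 there were 0 calls. The other tested NCOA2 probe sets, 205731_s_at and 205732_s_at, did not pass, at 0.22 and 0.64 (adjusted p = 0.696 and 0.294). Neither did 209107_x_at and 210249_s_at of NCOA1, both at 0.40 (adjusted p = 0.124 and 0.110).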

How the results depend on the processing

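Of 1507 values of the member probe sets recomputed under the alternatives, 1438 kept their side of the threshold, 57 lost a call and 12 gained one. Called values that changed sign numbered 0. Some uncalled values among the 1438 did change sign. With the GAPDH covariate the difference of effects of 205732_s_at was -0.11, against 0.64 without it. With 1 probe set per gene the counts of calls were over 5 genes: 3 for R1881 with SRF siRNA, 4 for R1881 with control siRNA and 4 for SRF siRNA in vehicle, against 7, 11 and 10 of 13 probe sets; fewer probe sets enter by construction. With the GAPDH covariate the counts were 6 for R1881 with SRF siRNA, 7 for R1881 with control siRNA, 2 for the difference of effects and 6 for SRF siRNA in vehicle. The cause was not tested. The share of all probe sets called was not counted under this covariate or the other alternatives. Fewer calls there thus cannot be read as particular to the members. At an adjusted p under 0.01 the difference of effects had 0 calls, against 4, and SRF siRNA in R1881 had 2, against 4. Without the filter, SRF siRNA in R1881 had 2, R1881 with SRF siRNA 6, the difference of effects 3 and SRF siRNA in vehicle 9, a total of 5 calls lost. Leaving out 1 array at a time gave 6 to 8 calls for R1881 with SRF siRNA, 10 to 11 for R1881 with control siRNA, 3 to 5 for the difference, 2 to 4 for SRF siRNA in R1881 and 9 to 10 for SRF siRNA in vehicle. The replicate block gave 7, 11, 3, 4 and 10 calls in the same order; besides the FOXA1 difference it changed no call of a member probe set. The largest shift of the all-probe-set median by a scaling alternative stayed under 0.1 on the log2 scale. Without the third array of both SRF siRNA groups, the difference of effects was 1.05 for 205732_s_at of NCOA2 (adjusted p = 0.00309) and 0.43 for 209106_at of NCOA1 (adjusted p = 0.0869).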
